A study of Mus musculus with 2 samples.

Results

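USF1 peaks at promoters that hold a CA-centred E-box and no CG-centred E-box were taken from a ChIP-seq peak list of the mouse line CH12.LX. The CA-centred E-box reads CACATG on one strand and CATGTG on the other, so it is not a palindrome, whereas the CG-centred E-box CACGTG is. A peak was a member when its summit lay within 1 kb of the 5′ end of a protein-coding transcript (the transcription start site, TSS; Gencode vM1, mm9) and the 101 bp around the summit held CACATG or CATGTG but no CACGTG. By this rule 383 of 10624 mm9 peaks were members (3.61%). They made up 12.4% of the 3082 promoter peaks. Another 1748 promoter peaks held CACGTG, with or without CACATG, and 951 held neither hexamer. A further 2815 peaks with the CA-centred E-box alone lay farther than 1 kb from any such TSS and are called distal.

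CH12.LX is an immortalized B-cell lymphoma line from mouse strain B10.H-2aH-4bp/Wts. Chromatin was precipitated with an antibody to USF1 in 2 biological replicates of 1 group, and the labels name no treatment or second condition. Region lists were analysed, and no read depth is given in the sources used here. Expression was not measured, so the labelled cell type could not be checked against expressed markers.

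USF1 is a basic helix-loop-helix leucine zipper protein that binds DNA as a dimer with itself or with its close relative USF2. Each subunit reads one side of the E-box, and the bases just outside the hexamer add to the contact. USF proteins are known for binding near TSSs of widely expressed genes, and their sites overlap those of other E-box factors such as MAX, MITF and TFEB.

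The 12 sites with the highest signal are shown first, to let the bases around the hexamer be read. Each is 30 bases read 5′ to 3′ on the strand where the hexamer is CACATG, with the copy nearest the summit in capitals. Coordinates are 1-based in mm9, and the sequence is from the NCBIM37 genome.
Commd4, chr9:57006132-57006161, plus strand: tgactctgtgatCACATGacacctactggt
Mff, chr1:82721436-82721465, plus strand: cccttctctcgtCACATGaccagaaaccta
C330006K01Rik, chr5:142939958-142939987, plus strand: acacagtccggtCACATGacacgtcatgtg
Slmap, chr14:27354443-27354472, minus strand: cacggcgtcaatCACATGataccccctatc
Git2, chr5:115223547-115223576, minus strand: gccctttccggtCACATGacctgcagggct
Tpp1, chr7:112900727-112900756, plus strand: catgtgataagtCACATGagcatggtctgg
Eaf2, chr16:36875027-36875056, minus strand: gccgggtggaatCACATGgtgggatgtgac
Spcs2, chr7:107007438-107007467, minus strand: tgcgctgcctatCACATGagcagcttcagc
Smndc1, chr19:53465137-53465166, plus strand: tggcgcccgggtCACATGaccctcgccgcc
Trmt1, chr8:87213153-87213182, minus strand: gggcgggccaatCACATGacaataactgac
Ints6, chr14:63380038-63380067, minus strand: gggcctgtggatCACATGacccgagtacgt
2210016L21Rik, chr5:115392154-115392183, minus strand: aagcttccctctCACATGacccacctgtca

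In all 12 sites the base before the hexamer is T, and in 11 of them, Eaf2 being the exception, the hexamer is also followed by A, giving TCACATGA. The next set shows members that lack the T or the A, or that belong to a gene list described further on; each is the strongest member for its list.
Vps41, chr13:18809151-18809180, plus strand: ttccgggtatgtCACATGactctcaggctg
Blnk, chr19:41068745-41068774, minus strand: gactccctggatCACATGacctcgtagaaa
Atp6v0c, chr17:24306394-24306423, plus strand: ccgcgctcgcgtCACATGatctgtccccgc
Mcm7, chr5:138613094-138613123, minus strand: agccgcacgggtCACATGggtgacgacgtt
Rora, chr9:69137669-69137698, plus strand: atgtcagccggtCACATGgagcctcttatg
Eno2, chr6:124719603-124719632, minus strand: gggcccccgggtCACATGcgccctcccggc
Mnt, chr11:74651318-74651347, plus strand: gcgggtgctaagCACATGgcctagctgacg
Lamtor2, chr3:88357016-88357045, minus strand: caactccacaacCACATGgtcccactggaa
Cd28, chr1:60803180-60803209, minus strand: cactttacagggCACATGatcaagggactc
Calr, chr8:87371802-87371831, minus strand: agcaggcagagtCACATGatttgagtcaga

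The signal of a peak is the authors' value from the mm9 list, whose scale is not given in the sources used here, and it was compared only within that list. Signal of the members had a median of 76.4 (95% interval of the median 70.1 to 89.5), quartiles of 44.9 and 207, and a range of 29.0 to 2565. Promoter peaks with CACGTG had a median of 216, promoter peaks with neither hexamer 48.1, and distal peaks with the CA-centred E-box alone 54.8. The members thus lay between the CACGTG promoters and the distal sites with the same hexamer. Above the median signal of all promoter peaks, 98.4, were 165 of 383 members (43.1%, 95% Wilson interval 38.2 to 48.1) and 1159 of 1748 promoter peaks with CACGTG (66.3%, 64.1 to 68.5) (odds ratio 0.385, two-sided Fisher's exact test, adjusted p = 2.08e-16). Above the median of all peaks, 62.9, were 60.1% of the members and 43.9% of distal CA-centred peaks (odds ratio 1.92, Fisher's exact test, adjusted p = 4.42e-09). These tests take each peak as a unit; they do not measure variation between cultures.

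Single members stood near the top of the list. Among the strongest 10% of all mm9 peaks were 60 members (15.7%), compared with 37.0% of promoter peaks with CACGTG and 2.70% of distal CA-centred peaks. Signal exceeded 1000 in 21 members. Commd4, whose product belongs to the COMM-domain family, held the strongest member at 2565, above 99.2% of all peaks.

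**Figure D1:**
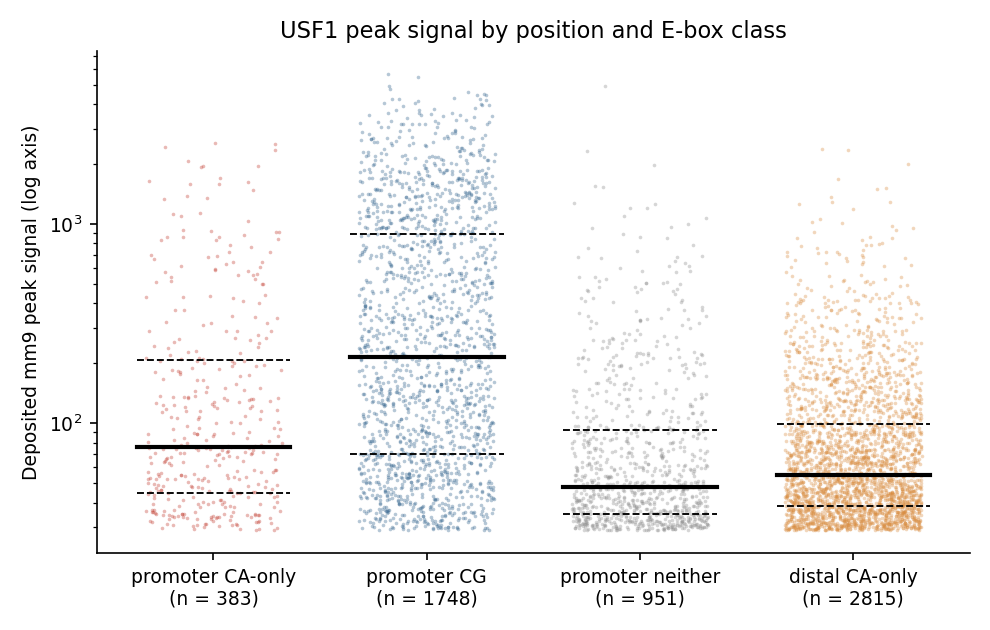
Deposited mm9 peak signal (log axis) of each peak in 4 classes defined by position and E-box; each point is 1 peak, the thick line is the median and the dashed lines are the quartiles. Members (promoter CA-only) have a median of 76.4, between 216 for promoter peaks with CACGTG and 54.8 for distal CA-only peaks, and their spread reaches 2565.

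The rule asks for the hexamer anywhere in the 101 bp and does not use its place within them. In 253 of 383 members (66.1%, 61.2 to 70.6) the centre of the nearest copy lay within 15 bp of the summit. Windows of the same size centred 500 bp to either side of all promoter summits, and meeting the same sequence rule, had their nearest copy that close to the centre in 76 of 238 cases (31.9%, 26.3 to 38.1) (odds ratio 4.15, Fisher's exact test, p = 1.22e-16). The median offset of the E-box from the summit was -0.5 bp, with quartiles of -12.5 and 10.5 bp, so the copies lay on both sides alike. Promoter peaks with CACGTG had the hexamer within 15 bp slightly more often, at 72.5% (Fisher's exact test, adjusted p = 0.0253), but with a limit of 10 bp the shares were 44.9% and 48.0% (adjusted p = 0.340). Distal peaks with CACATG had it within 15 bp in 67.9% (66.2 to 69.6), and that difference did not pass the test (Fisher's exact test, adjusted p = 0.485). The hexamer alone was present in a 101-bp window without CACGTG at 3.86% of the flanking windows and at 3.33% of 45974 windows centred on annotated TSSs.

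**Figure D2:**
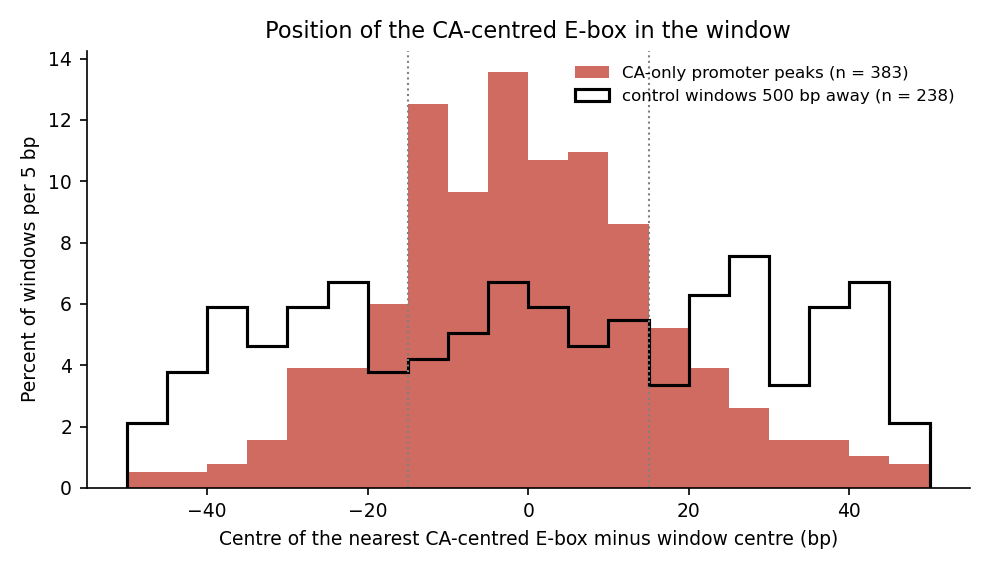
Distance in bp from the window centre to the centre of the nearest CA-centred E-box, as a percent of windows per 5 bp, for the 383 members (filled) and for 238 control windows 500 bp from promoter summits (outline); dotted lines mark 15 bp. Of the members, 66.1% lie between the dotted lines, against 31.9% of the control windows.

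Most members carried a single hexamer: 354 had 1 copy, 26 had 2 and 3 had 3. In 5 of the 26 the copies overlapped as CACATGTG, with centres 2 bp apart. A spacing of 12 bp occurred in 4 of them, near C330006K01Rik with signal 2445, Tpp1 with 1968, Adnp2 with 317 and Iqgap2 with 44.9; this spacing was picked out after its values were seen. A link of a second copy with signal did not pass among the members. The median was 75.03 in the 29 members with more than 1 copy and 76.9 in the others (Fisher's exact test on the share above the members' median, adjusted p = 0.758). Of the 29, 44.8% (28.4 to 62.5) lay above the members' median. In distal CA-centred peaks the medians were 61.4 and 53.9, and the same test passed (Fisher's exact test, adjusted p = 0.0320). The odds ratios, 0.803 and 1.28, did not differ past the threshold (Zelen's exact test, adjusted p = 0.316). CACGTG lay outside the window but within 150 bp of the summit in 10 members.

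Because CACATG is not a palindrome, its 2 sides can be told apart. In members the bases were read around the copy nearest the summit. Before the hexamer, on the CAC side, the base was T in 276 members (72.1%, 67.4 to 76.3), C in 14.4%, G in 9.40% and A in 4.18%. After it, on the ATG side, A stood in 49.6%, G in 29.2%, C in 13.6% and T in 7.57%. One base farther out, G preceded in 62.7% and C followed in 52.0%. Copies of CACATG lying 250 to 1000 bp from the same summits had T before the hexamer in 65 of 311 cases (20.9%, 16.8 to 25.8) (odds ratio 9.76, Fisher's exact test, p = 1.98e-41 adjusted with the 16 forms described next).

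Read as 8 bases, 16 forms are possible, and 11 of them (68.8%) differed in share from the copies farther away at an adjusted p under 0.05. TCACATGA stood at 35.2% of the members and at 5.79% of the farther copies, 6.09-fold as often (Fisher's exact test, adjusted p = 1.64e-21). TCACATGG followed at 21.9% against 5.14% (adjusted exact p = 7.65e-10), and CCACATGA at 8.62% against 4.50% (adjusted p = 0.0493). Forms with A before and C or T after were the rarest relative to the farther copies: ACACATGC stood at 1.04% against 10.9% (adjusted exact p = 3.59e-08) and ACACATGT at 0.261% against 7.40% (adjusted p = 3.41e-07). CCACATGG, the form of the Lamtor2 copy nearest the summit, stood at 2.61% against 12.5% (adjusted exact p = 1.12e-06). The other Lamtor2 copy, with its centre 53 bp away, reads TCACATGA. The commonest 10 bases, GTCACATGAC, occurred in 64 members (16.7%).

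Distal peaks with the same hexamer carried the T more often than the members, in 81.5% (79.98 to 82.8; odds ratio 0.587, Fisher's exact test, p = 2.35e-04 adjusted in the same way). Among peaks at or above the median −log10 q of the list the shares were 79.6% and 83.6%, and with 25-bp flanks in place of 50 bp they were 76.4% and 81.8%. The difference then no longer passed (adjusted exact p = 0.806 and 0.1000). TCACATGA stood at 46.9% of distal peaks (adjusted exact p = 2.41e-04 against the members). The reverse held for GCACATGG, at 3.92% of members and 0.995% of distal peaks (adjusted exact p = 5.78e-04), and for CCACATGC, at 2.61% and 0.497% (adjusted p = 0.00119). These 3 of 16 forms (18.8%) were the ones that differed between promoter and distal peaks.

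Among the members, the bases next to the hexamer went with signal. Members with T before it had a median of 89.7 and those without 54.7, and 56.2% against 33.6% lay above the members' own median (odds ratio 2.53, Fisher's exact test, adjusted p = 6.41e-04). TCACATGA members had a median of 117 and all other members 67.7 (adjusted exact p = 0.0363). A after the hexamer by itself did not pass, with medians of 88.7 and 68.9 (adjusted exact p = 0.249). Of 13 features compared in this way, 5 passed (38.5%): T before the hexamer, TCACATGA, an E-box within 15 bp of the summit, a TSS within 100 bp and the CCAAT box described below. The gap for T before the hexamer was 1.63 in odds ratio and did not pass (exact p = 0.190) when peaks below the median −log10 q were left out.

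The E-box position and the TSS distance gave wide gaps in signal. A hexamer within 15 bp of the summit went with a median of 105, and one farther out with 52.1 (odds ratio 3.002, Fisher's exact test, adjusted p = 1.32e-05). Over 4 equal bins of the members by signal, from the weakest to the strongest, the share with T before the hexamer was 60.4%, 65.6%, 80% and 82.3%. TCACATGA stood at 27.1%, 31.3%, 33.7% and 48.96% of the same bins, and a hexamer within 15 bp at 45.8%, 62.5%, 72.6% and 83.3%. In distal CA-centred peaks the T was present in 80.1% of the weakest and 84.7% of the strongest bin. A hexamer within 15 bp was present in 57.2% and 81.7% of these distal bins. With it, the odds ratio of lying above the class median was 3.002 at promoters and 2.05 at distal sites. These did not differ past the threshold (Zelen's exact test, adjusted p = 0.195). The odds ratio of lying above the class median with T before the hexamer was 2.53 at promoters and 1.25 at distal sites, a ratio of 2.02 (95% interval 1.22 to 3.34; Zelen's exact test of equal odds ratios over peaks, p = 0.00636, adjusted over 5 features p = 0.0318). That ratio was 1.27 (exact p = 0.587) among peaks at or above the median −log10 q, 1.60 (p = 0.121) with windows of 25 bp on each side and 1.48 (p = 0.0972) with a TSS limit of 2 kb.

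The rule keeps all member summits within 1 kb of a TSS. They lay upstream of the nearest TSS in 64.8% (59.8 to 69.4) of members and in 64.2% (62.0 to 66.5) of promoter peaks with CACGTG (Fisher's exact test, adjusted p = 0.860), with a median position of -38 and -30 bp. Within 100 bp of the TSS were 38.6% of the members and 45.2% of the CACGTG promoters (odds ratio 0.764, Fisher's exact test, adjusted p = 0.0298). By annotation, 178 summits lay outside transcripts, 123 in introns, 71 in untranslated exons and 11 in coding exons. Read along the nearest gene, CACATG was on the sense strand in 188 of 383 members (49.1%, 44.1 to 54.1; exact binomial test against 50%, p = 0.759), so neither orientation was favoured beyond counting error. At a bidirectional promoter, with an oppositely directed TSS of another gene within 1 kb upstream, were 6.01% of members and 9.04% of CACGTG promoters (Fisher's exact test, adjusted p = 0.0656); with the TSS limit at 2 kb this difference passed the test (5.58% and 8.45%, adjusted p = 0.0359).

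Members had lower signal than promoter peaks with CACGTG in each of 3 ranges of TSS distance. Within 100 bp of the TSS the median signal was 122 in 148 members and 558 in 790 promoter peaks with CACGTG (share above the promoter median 56.1% and 80.9%, Fisher's exact test, adjusted p = 1.67e-09). From 101 to 300 bp the medians were 79.98 and 159 (44.1% and 61.6%, adjusted exact p = 0.00246). From 301 to 1000 bp they were 56.0 and 91.7 (28.9% and 48.3%, adjusted exact p = 5.72e-05). Just inside the 1 kb limit, the 18 members 900 to 1000 bp from the TSS had a median of 44.5, and the 15 peaks 1001 to 1100 bp away 37.3. At the window's edge, 14 members with the hexamer 38 to 48 bp from the summit had a median of 44.8, and 3 promoter peaks with it in the next 10 bp had 42.0.

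**Figure D3:**
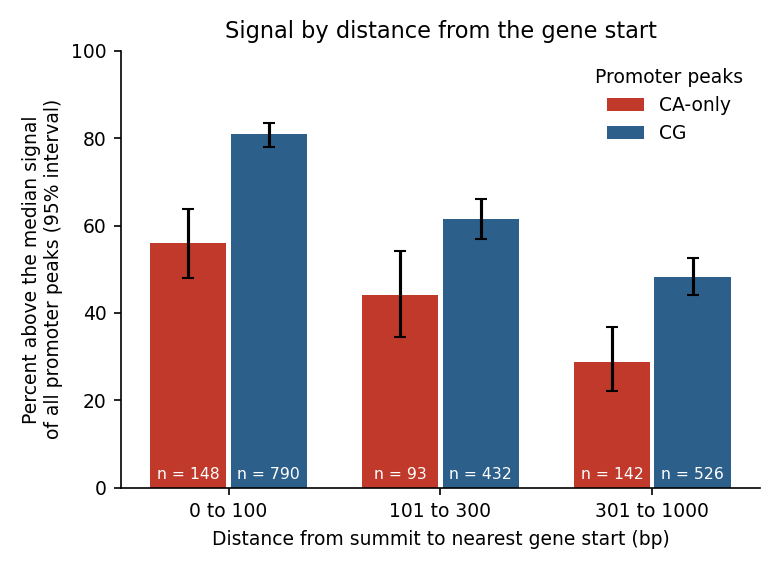
Percent of promoter peaks above the median signal of all promoter peaks (bars from 0, 95% Wilson intervals) by distance in bp from summit to nearest TSS, for members (CA-only) and promoter peaks with CACGTG (CG); n is written in each bar. Members are at 56.1%, 44.1% and 28.9%, below the CACGTG promoters in all 3 ranges.

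Promoters in mammals are often CpG islands, stretches where the CpG dinucleotide has not been depleted. CpG observed over expected in 500 bp on each side of the summit was at least 0.6 in 165 members (43.1%, 38.2 to 48.1) and in 70.7% (68.5 to 72.7) of promoter peaks with CACGTG (odds ratio 0.314, Fisher's exact test, adjusted p = 6.23e-23). CACGTG itself contains a CpG, which counts towards this value. Distal CA-centred peaks reached 0.6 in 0.817% (adjusted exact p = 4.25e-140 against the members). Tpp1 and Coro2b, both among the 25 strongest members, had values of 0.256 and 0.198, while Mff had 0.860.

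Of 20 short strings that stand for binding sites of other factors, searched on both strands of the 101 bp, 5 (25%) differed in share between members and promoter peaks with CACGTG. The GC box GGGCGG, bound by SP and KLF factors, stood in 22.5% of members and 33.4% of CACGTG promoters (odds ratio 0.579, Fisher's exact test, adjusted p = 5.19e-04). It is found in 25.1% of all TSS windows. CCAAT, the box read by the trimeric factor NF-Y, stood in 23.2% of members and 16.1% of CACGTG promoters (adjusted exact p = 0.00875), against 11.6% of all TSS windows. Over all promoter peaks CCAAT stood in 20.3%, so a share above that of TSS windows was not particular to the members. The octamer ATGCAAAT, read by OCT factors and known from immunoglobulin promoters, stood in 8 members (2.09%) and 5 CACGTG promoters (0.286%; adjusted exact p = 0.00564), against 0.313% of all TSS windows. Distal CA-centred peaks held it in 1.28%, and their difference from the members did not pass (adjusted exact p = 0.315). The ETS string CCGGAAGT stood in 0.783% and 2.97% (adjusted exact p = 0.0467), and the RUNX string TGTGGT in 9.40% and 5.32% (adjusted p = 0.0211), against 2.69% and 5.04% of all TSS windows.

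TGTGGT can be built from the last bases of CATGTG, and with both E-box hexamers masked the RUNX shares were 5.48% and 5.03% (adjusted exact p = 0.738). The ETS adjusted p was then 0.0583. With 25-bp flanks 0 of the 20 strings passed after adjustment, and 5 had an unadjusted p under 0.05 by Fisher's exact test. Of 6 settings of window, TSS limit, peak threshold and TSS set, the GC box passed in 5, the octamer in 4, CCAAT and RUNX in 3 and ETS in 1. A match of such a string is a description of the sequence, not evidence that a factor was bound.

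Against distal CA-centred peaks, 9 of the 20 strings (45%) differed. The GC box (22.5% and 3.02%, Fisher's exact test, adjusted p = 3.95e-36), the CRE half-site TGACGT read by CREB and ATF factors (7.31% and 2.20%, adjusted p = 3.98e-06) and the string CATGCG (4.44% and 1.31%, adjusted p = 3.86e-04) were more frequent in the members under every window, TSS limit, peak threshold and TSS set tried. CACGCG (5.48% and 0.710%), the full CRE TGACGTCA (2.87% and 0.178%), CCAAT (23.2% and 18.05%) and the NRF1 string GCGCATGC (0.783% and 0.0710%) were also more frequent, CCAAT and NRF1 passing in 2 of the 6 settings and the other two in 5. AP-1 (TGANTCA) and RUNX strings were less frequent, at 4.70% against 10.6% and 9.40% against 14.7%, and passed in 5 and 3 settings. TGANTCA overlaps the E-box when GTCACATG is preceded by TGA, and with the hexamers masked its difference did not pass (3.13% and 5.65%, adjusted exact p = 0.0786). Windows 500 bp to either side of the summits held the GC box in 11.1% for members and 1.51% for distal peaks. There CACGCG stood in 3.52% and 0.355%, TGACGT in 2.35% and 1.03%, and NRF1 in 0.653% and 0.160%. AP-1 stood in 1.83% and 3.30%, and RUNX in 5.09% and 8.15%. CATGCG (1.31% and 1.17%), CCAAT (11.7% and 12.2%) and the full CRE (0% and 0.142%) lay close together there. Whether base composition around the sites plays a part was not tested.

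CCAAT was the only one of the 4 strings compared for signal among the members that passed: 89 members with it had a median of 126 and the other 294 a median of 71.6 (Fisher's exact test, adjusted p = 0.0363). The other 3 were the GC box, the CRE half-site and the RUNX string. The CCAAT difference did not pass with windows of 25 bp (exact p = 0.316) or 75 bp (p = 0.123) on each side. Whole windows on the plus strand show how members with and without these strings look, hexamers in capitals. Spcs2 and Coro2b hold CCAAT, Mnt holds a CRE and a GC box, Lamtor2 has 2 hexamers and Slmap holds none of the 20 strings.
Spcs2, chr7:107007417-107007517: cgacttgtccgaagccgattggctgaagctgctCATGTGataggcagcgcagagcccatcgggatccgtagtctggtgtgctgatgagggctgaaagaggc
Coro2b, chr9:62358540-62358640: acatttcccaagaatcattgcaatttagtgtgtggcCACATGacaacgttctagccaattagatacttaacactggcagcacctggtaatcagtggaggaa
Mnt, chr11:74651284-74651384: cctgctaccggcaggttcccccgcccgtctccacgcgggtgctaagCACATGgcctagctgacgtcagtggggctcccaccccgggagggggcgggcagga
Lamtor2, chr3:88356969-88357069: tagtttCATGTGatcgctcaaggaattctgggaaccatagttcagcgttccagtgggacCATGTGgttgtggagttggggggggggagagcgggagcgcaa
Slmap, chr14:27354430-27354530: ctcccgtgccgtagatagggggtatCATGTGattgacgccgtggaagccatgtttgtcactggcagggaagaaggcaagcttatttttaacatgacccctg

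The replicates were compared in mm10, where each has its own relaxed list of regions. The mm9 and mm10 lists come from the same 2 replicates, so coverage in mm10 is not independent of the mm9 peaks. No coordinates were converted between builds; instead, the 41 bp around the hexamer were looked up in the RefSeq promoter sequences of GRCm38.p6, which reach from 250 bp before to 50 bp after each TSS. A single place was found for 130 of 383 members and for 734 promoter peaks with CACGTG. The matched sites thus all lie near a RefSeq TSS and do not stand for the whole class. Of the 25 strongest members 15 were matched, and of the 25 weakest 7. Of the 130, replicate 1 covered 125 with a region (96.2%), replicate 2 covered 128 (98.5%) and both covered 124 (95.4%). The optimal list, made by the authors with an IDR threshold, covered 112 (86.2%, 79.2 to 91.1) and their conservative list 107 (82.3%). For CACGTG sites the optimal list covered 94.0%. One member site, that of the splicing factor Srsf3, was covered in neither replicate although its mm9 signal was 886; it was picked out after its values were seen. Whether regions at that place were filtered out of the mm10 lists was not checked.

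Median mm10 region signal at the covered member sites was 44.4 in replicate 1 and 49.4 in replicate 2, against 146 and 171 at CACGTG sites. The ratio of these medians was 0.296 ± 0.0108 (SD, n = 2 replicates); no test over the 2 replicates was run. At the 124 sites covered in both, the median log2 ratio of replicate 2 to replicate 1 was 0.22 (SD 0.50 over sites), 77.4% were higher in replicate 2 and 8.87% were over 2-fold apart. At the 724 CACGTG sites covered in both, the median log2 ratio was 0.15 (SD 0.31), 79.8% were higher in replicate 2 and 1.66% were over 2-fold apart. Members thus shared the shift to replicate 2. A larger share of them lay over 2-fold apart, but their signal was lower, and sites of equal signal were not compared. The difference in that share was not tested. Spearman's rho between the replicates was 0.927 over the member sites and 0.978 over the CACGTG sites, which share library, antibody and region calling in each replicate.

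**Figure D4:**
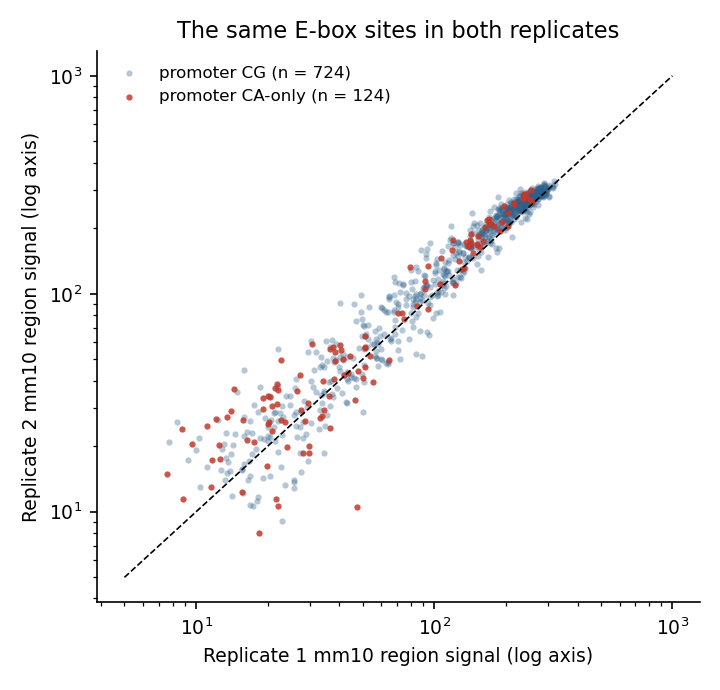
Authors' mm10 region signal in replicate 1 and replicate 2 (both log axes) at the E-box sites matched by sequence and covered in both, 124 members (promoter CA-only) and 724 promoter sites with CACGTG (CG); each point is 1 site and the dashed line marks equal values. Most member sites lie above the line, 77.4% of them, and they fill the low end more than the CACGTG sites do.

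Joined by gene symbol instead, 359 of 363 genes with a member and no CACGTG peak within 1 kb could be placed in mm10. An optimal summit lay within 1 kb of the mm10 TSS of 262 of these (73.0%, 68.2 to 77.3) and of 82.9% (81.0 to 84.5) of genes with a CACGTG peak and no member (odds ratio 0.559, Fisher's exact test, p = 2.34e-05). Both replicates had a region there for 84.7% of the member genes and 91.0% of the CACGTG genes. Genes with no mm9 promoter peak had an optimal summit in 1.14% and regions of both replicates in 9.92%. The ratio of median signals by gene was 0.426 ± 0.0144 (SD, n = 2 replicates).

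The 25 strongest members ranged from 913 to 2565. In 21 of the 25 the site read TCACATGA, in 23 T came first, in 24 the hexamer lay within 15 bp of the summit and in 19 the TSS was within 100 bp. In the 25 weakest, at 29.0 to 32.5, the same counts were 5, 13, 16 and 7. These sets were ordered by signal and are given as a description. All 15 of the strongest that were matched in mm10 were on the optimal list, against 1 of 7 of the weakest. That list comes from the same replicates as the mm9 signal, so this contrast is not independent of the ordering by signal.

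The 25 strongest are grouped here by what their genes are known to do, a grouping made after the values were seen. Mff, the outer-membrane receptor that recruits the fission GTPase to mitochondria, had a member summit 19 bp upstream of its TSS with mm9 signal 2535, and its site had mm10 signal 256 in replicate 1 and 264 in replicate 2. Tpp1, a lysosomal peptidase, had a summit 4 bp upstream with signal 1968, and mm10 values of 236 and 273. Vps41, a subunit of the HOPS tethering complex that brings vesicles to lysosomes, had a summit 2 bp upstream with signal 1343 and mm10 values of 216 and 257. Replicate 2 was the higher at all 3 sites. Fahd1, a mitochondrial acylpyruvase that shares a divergent promoter with Hagh, had signal 913 with the hexamer in a coding exon.

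Genes for RNA handling also stood among the strongest. Smndc1, a splicing factor, had signal 1712, Trmt1, a tRNA methyltransferase, 1644, and Ints6, a subunit of the Integrator complex, 1619. Utp20, a component of the small-subunit processome, had 1346 with CCACATGA as its site. In mm10 Smndc1 had 243 and 285, Ints6 239 and 287, and Utp20 205 and 236 in replicates 1 and 2. At all 3 the value of replicate 2 was again the higher.

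Several of the strongest lay by genes of the secretory pathway. Spcs2, a signal peptidase subunit whose promoter faces Xrra1, had mm9 signal 1936 and mm10 values of 242 and 280. Stt3a, a catalytic subunit of oligosaccharyltransferase, had 919, with its summit 282 bp upstream. Ccdc91, known as an accessory protein of trans-Golgi coat adaptors, had 1036 and mm10 values of 196 and 251.

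The remaining strong members lay by genes of varied function. Commd4 had mm10 values of 238 and 275. Git2, an ARF GTPase-activating protein, had mm9 signal 2072 and mm10 values of 217 and 262. Eaf2, an ELL-associated elongation factor that faces Golgb1, had 1953 and mm10 values of 255 and 298. Slmap, a tail-anchored membrane protein, had 2347, and C330006K01Rik 2445; neither was matched in mm10. Ppp3r1, the regulatory subunit of calcineurin, had 913 and mm10 values of 169 and 222. Smcr8, an autophagy regulator that faces Top3a, had 1475, Pip4k2c, a phosphoinositide kinase, 1379, and Dusp3, a dual-specificity phosphatase whose member summit lay 522 bp inside the gene, 1094. The others of the 25, 2210016L21Rik, Depdc1a, Coro2b, Gpatch3 and Gusb, lay between 932 and 1596.

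Over all protein-coding genes, 398 of 22232 (1.79%) had a member within 1 kb, and 35 of these 398 also had a CACGTG peak. A CACGTG peak lay within 1 kb of 1859 of the 22232 genes. Of 576 distinct genes on 19 lists of pathways and cell types, 33 had a member (5.73%) and 143 a CACGTG peak (24.8%). Both shares were above those over all genes, so a raised share was not particular to the members. The lists were chosen by hand, many of them around pathways that USF and related factors are known for, and are no sample of promoters at large. Of the lists, 6 had no member: nucleotide and one-carbon synthesis, lipid and sterol synthesis, heme, iron and redox, proteasome, translation initiation and Rab GTPases. The 35 listed member peaks had a median signal of 120, against 76.4 in all members.

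On the list of lysosomal enzymes and membrane proteins, 19 of 49 genes had a CACGTG peak (38.8%). Members lay at 7 of the 49 genes (14.3%), with a median signal of 639 over 8 peaks. Besides Tpp1 these were Gusb (beta-glucuronidase), with peaks of 932 and 56.7, Ppt1, a thioesterase that removes palmitate, with 861, Galns, a sulfatase whose divergent partner Trappc2l lies nearer to the summit, with 672, and Neu1, a sialidase, with 606. Scarb2, a lysosomal membrane protein, had 269 and Ctss, the protease that trims the invariant chain in antigen-presenting cells, 89.5. In 7 of the 8 peaks T came before the hexamer. The 6 peaks matched in mm10 were all on the optimal list; Neu1 had 155 and 165 and Ctss 34.1 and 39.8 in replicates 1 and 2. Of the 17 vacuolar ATPase genes, 8 had a CACGTG peak (47.1%) and 2 had members. These were Atp6v0c, the proteolipid of the membrane ring, with 645 and Tcirg1, an a subunit, with 42.6. On the list of mTORC1 at the lysosome, 1 of 22 genes had a member and 8 a CACGTG peak. The member lay by Lamtor2, part of the Ragulator complex that holds mTORC1 at lysosomes, with 79.6.

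The circadian clock list had members at 5 of 24 genes (20.8%), with a low median signal of 47.0 over 6 peaks. Rora, an orphan nuclear receptor that activates Bmal1, had 205, and Dbp, an output transcription factor, had peaks of 196 and 34.8. Nr1d1, a receptor that represses Bmal1, had 56.1, Cry2 37.97 and Per1 31.4, the last 2 encoding repressors of the clock. Of the 3 matched in mm10, Nr1d1 was on the optimal list and Cry2 and Per1 were not; Per1 was covered in replicate 2 alone. Clock genes also held CACGTG peaks, at 8 of 24.

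Among bHLH-ZIP factors, 3 of 21 genes had members: Mnt, a MAX partner that represses, with 205, Usf2, the partner of USF1, with 120, and Srebf1, a regulator of lipid synthesis, with 33.7. The Srebf1 site was covered in both mm10 replicates, at 8.85 and 11.5, but not by the optimal list. B-cell identity and signalling genes had members at 4 of 44: Blnk, the adaptor downstream of the B-cell receptor, with 784, Spib, an ETS factor of B cells, with 243, Ikzf1, which encodes Ikaros, with 136, and Syk, named Sykb in the annotation, with 47.8. Blnk had mm10 values of 173 and 209 and Spib 84.6 and 88.3. On the T-cell list Cd28 and Cd3d, 2 of 20 genes, had 64.5 and 39.2. CACGTG peaks lay by 5 of the 21 bHLH-ZIP genes, 9 of the 44 B-cell genes and 2 of the 20 T-cell genes.

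Other lists held few members. Mitochondrial dynamics and respiration had 3 of 28 genes (10.7%), with Cox5a at 75.4 and Fis1 at 71.5 besides Mff. Glycolysis had 2 of 20 genes (10%): Eno2, an enolase, at 165 and Slc2a3, a glucose transporter, at 47.6. Mcm7, a subunit of the replicative helicase and the one member of 38 cell cycle and replication genes, had 693 and mm10 values of 160 and 175. Antigen presentation had 2 of 23 genes (8.70%): Calr at 54.6 and Cd74, the invariant chain, at 35.8. Calr is also the 1 member of 25 genes of ER stress and chaperones (4%).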

How the data were processed

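USF1 ChIP-seq regions of 2 biological replicates of 1 group were analysed. The mm9 list came from both replicates' alignments and each mm10 relaxed list from 1 replicate, and the optimal and conservative lists carry an IDR threshold, per the deposited readme files. The authors' signal (column 7) was used as deposited. Column 9 of that mm9 table served as −log10 q, in the narrowPeak order of the authors' columns. The sources used here do not give the signal's scale, the peak caller, the aligner or the read depth. Control libraries were not analysed here.

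Summits were the start plus the offset in column 10. Sequence came from NCBIM37, which holds every chromosome of the mm9 list, with Gencode vM1. Windows were 50 bp on each side of the summit. Shares were compared with two-sided Fisher's exact tests, odds ratios with Zelen's exact test and orientation with an exact binomial test (Python 3.11.15, SciPy 1.17.1), with Benjamini-Hochberg adjustment within a family and a threshold of 0.05. The tests of position against flanking windows, of orientation and of the optimal list by gene are single and unadjusted. Intervals around shares (Wilson, 95%) reflect counting error alone. The scripts were tested on simulated data. In mm10, genes were matched by symbol or synonym to RefSeq (GRCm38.p6), with the strand from Gencode where the promoter table had no entry, or 41-bp sites by exact sequence.

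The members, the 19 gene lists and the 20 strings were chosen with earlier results of these data known. Named genes are the 25 members with the highest signal and every member within 1 kb of a listed gene; Adnp2, Iqgap2 and Srsf3 fall outside this rule and were named after their values were seen. The comparisons of signal among members and between promoter and distal peaks by flanking base, the ranges of TSS distance, the masking of hexamers, the match by sequence and the setting without members that have CACGTG within 150 bp were added after the data had been seen.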

Additional observations from a re-analysis of the deposited data

Results flagged for a closer look

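The link between T before the hexamer and signal differed between promoter and distal peaks with the CA-centred E-box. The odds ratio of lying above the class median was 2.53 in the 383 members and 1.25 in 2815 distal peaks, a ratio of 2.02 (95% interval 1.22 to 3.34, Zelen's exact test, adjusted p = 0.0318). The median signal with and without the T was 89.7 and 54.7 in members and 56.0 and 51.4 in distal peaks. The quartiles of signal were 44.9 and 207 in members and 38.5 and 99.5 in distal peaks; the part of this difference in the result was not tested. By the unadjusted p, the ratio passed the test with windows of 75 bp, a TSS limit of 500 bp and one outermost 5′ end per gene, and did not with windows of 25 bp, a limit of 2 kb or the stricter list. The same test for TCACATGA gave a ratio of 1.69 and did not pass (Zelen's exact test, adjusted p = 0.0593).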

How the results depend on the processing

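For 17 results 113 alternatives were run. Of these 92 left a tested result on its side of the threshold, an untested value within its error, or a count within 1.5 times. Under every alternative run, 8 results were so. No result that passed the test in either setting changed direction. A change of direction counted as unchanged where neither setting passed. The upstream share, 64.8% in members and 64.2% in CACGTG promoters, was 58.7% and 60.9% with a TSS limit of 2 kb. For 6 further results on signal among the members, 36 alternatives were run, of which 8 no longer passed the test by the unadjusted p. These 8 stand beside those results and below. The results themselves were called on the adjusted p, which is stricter. The number of members, 383, was 289 with a TSS limit of 500 bp and 538 with one of 2 kb. The cause of a change was not tested unless it follows from the alternative itself, such as fewer peaks. Keeping peaks at or above the median −log10 q left 230 members with a median signal of 170. The median was 91.6 with windows of 25 bp on each side, 93.7 with a TSS limit of 500 bp and 68.4 with one of 2 kb. The share within 15 bp of the summit no longer differed from CACGTG promoters past the threshold with windows of 25 bp (80.1%), with the stricter list (73.9%) or with a limit of 10 bp (44.9%). T before the hexamer, at 79.6% in the stricter list and 76.4% with windows of 25 bp, no longer differed from distal peaks past the threshold. The bidirectional share, 5.58% with a TSS limit of 2 kb, then passed. Of the 20 strings, the number that differed from CACGTG promoters was 5, and it was 0 with windows of 25 bp (5 at an unadjusted p under 0.05, Fisher's exact test), 3 with a limit of 500 bp, 2 with one outermost 5′ end per gene and 3 with hexamers masked. Against distal peaks it was 9, and 3 with windows of 25 bp. Regions of both replicates were found for 84.7% of member genes, for 88.9% within 2 kb, for 80.5% with an overlap of 50% of each region and for 95.4% of sites matched by sequence. Leaving out 1 replicate gave 85.8% to 89.7%, and a ratio of medians of 0.416 to 0.436. That ratio was 0.296 for sites matched by sequence, which all lie near a RefSeq TSS. No paired analysis was possible because there is 1 group.

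The signal scale and the depth are unknown, and absence from a list is not absence of binding. Tests over peaks do not measure variation between cultures. The sequence match covers 130 of 383 members, all near a RefSeq TSS. Masking, the match by sequence and the setting without members with CACGTG within 150 bp were chosen after seeing the data. Among members, the link of signal with TCACATGA and with an E-box within 15 bp did not pass with windows of 25 bp (exact p = 0.0690 and 0.0517).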
